A study of Homo sapiens with 18 samples.

Results

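The 34 genes described here are those of glycolysis and of the response to low oxygen, taken from the table by symbol from a list drawn up with earlier results of these data known: 3 of the HIF pathway, 3 transporters of glucose and lactate, 15 glycolytic enzymes, 4 regulators and exits of glycolysis, and 9 other genes known to be induced by hypoxia. They are 34 of the 57773 genes in the deposited table. Polyadenylated RNA was sequenced from hTERT-RPE1 cells, an established human cell line, near-diploid and immortalised with telomerase, that comes from the retinal pigment epithelium. The cells received no drug, cytochalasin D (a toxin that stops actin filaments from growing, so that cells cannot divide after mitosis) or ZM447439, which inhibits the Aurora kinases of mitosis and was given at 2.5 µM for 24 h. For cytochalasin D neither dose nor duration is stated in the labels. All cells were grown in 10% serum and sorted by DNA content into 2N and 4N populations after 60 min in the DNA dye Hoechst 33342 (2 µg/mL). That gave 6 groups of 3 libraries, which the series' design calls biological replicates, 18 in all: untreated, cytochalasin D and ZM447439, each as 2N and 4N cells. The 4N gate takes in diploid cells that have copied their DNA as well as tetraploid cells that have not, and the sort alone does not separate them.

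Glycolysis turns glucose into pyruvate: hexokinase traps the sugar, phosphofructokinase commits it to breakdown, and pyruvate kinase yields the final ATP, after which lactate dehydrogenase can turn pyruvate into lactate. In low oxygen the prolyl hydroxylases EGLN1 and EGLN3 stop marking HIF1A for destruction, and the HIF1A protein, with its partner ARNT, raises the genes of most glycolytic steps together with VEGFA, ADM and CA9. Oxygen regulates HIF1A mainly as a protein, so its RNA level does not measure its activity. The labels mention no low oxygen.

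The core of the element that HIF binds reads ACGTG or GCGTG. Promoter windows of RefSeq (build GRCh38.p14, not the hg19 build of the deposited table) run from 250 bases before to 50 after each annotated start, 300 bases in all. They were found for 30 of the 34 genes; SLC2A3, VEGFA, BNIP3L and NDRG1 had no entry. ACGTG or GCGTG, on either strand, stood in 39 of the 58 windows of these genes (67.2%) and in 48.4% of all 35116 windows of that length. Several windows belong to 1 gene and can overlap, and a match is a run of letters, not a bound site. Shown here are the windows of 3 genes that were lower with both drugs (LDHA, ENO1 and PGK1), of PKM, which was higher with cytochalasin D, and of SLC2A1, which was higher with ZM447439; capitals mark the matches of either motif, read on both strands, and CACGTG holds ACGTG on each strand.
LDHA, chr11:18394313-18394612, plus strand: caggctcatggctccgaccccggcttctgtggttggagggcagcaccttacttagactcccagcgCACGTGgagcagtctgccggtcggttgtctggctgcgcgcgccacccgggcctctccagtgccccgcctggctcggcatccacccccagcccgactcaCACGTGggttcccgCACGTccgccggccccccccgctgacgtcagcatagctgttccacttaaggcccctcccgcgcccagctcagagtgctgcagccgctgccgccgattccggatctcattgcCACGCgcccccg
PGK1, chrX:78103998-78104297, plus strand: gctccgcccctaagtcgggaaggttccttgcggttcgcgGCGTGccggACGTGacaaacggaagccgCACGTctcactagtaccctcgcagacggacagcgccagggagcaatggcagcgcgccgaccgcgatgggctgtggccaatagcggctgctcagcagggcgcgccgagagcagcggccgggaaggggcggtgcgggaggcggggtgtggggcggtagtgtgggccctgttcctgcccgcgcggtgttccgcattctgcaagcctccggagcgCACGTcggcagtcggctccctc
ENO1, chr1:8878637-8878936, minus strand: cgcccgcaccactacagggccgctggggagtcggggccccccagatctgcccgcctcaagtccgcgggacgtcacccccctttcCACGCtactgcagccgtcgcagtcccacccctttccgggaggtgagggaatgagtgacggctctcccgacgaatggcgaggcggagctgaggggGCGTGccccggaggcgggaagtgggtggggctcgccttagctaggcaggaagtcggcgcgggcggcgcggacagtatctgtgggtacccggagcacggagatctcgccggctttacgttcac
PKM, chr15:72231141-72231440, minus strand: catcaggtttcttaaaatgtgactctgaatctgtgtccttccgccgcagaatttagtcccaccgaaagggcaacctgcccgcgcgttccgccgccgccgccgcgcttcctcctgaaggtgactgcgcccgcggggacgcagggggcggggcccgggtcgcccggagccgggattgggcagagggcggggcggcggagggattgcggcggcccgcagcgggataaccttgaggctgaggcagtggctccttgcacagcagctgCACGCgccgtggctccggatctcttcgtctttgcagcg
SLC2A1, chr1:42958819-42959118, minus strand: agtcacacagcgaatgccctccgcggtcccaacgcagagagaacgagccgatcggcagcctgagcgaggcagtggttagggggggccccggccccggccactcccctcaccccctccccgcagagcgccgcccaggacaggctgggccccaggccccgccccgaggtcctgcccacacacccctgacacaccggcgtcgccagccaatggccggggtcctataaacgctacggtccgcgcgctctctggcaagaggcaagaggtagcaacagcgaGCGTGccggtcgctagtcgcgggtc
This window of LDHA held 5 matches of ACGTG and 1 of GCGTG, while its other window (chr11:18396101-18396400) held 0 and 1; PGK1 held 3 and 1. ENO1 held 2 matches of GCGTG, PKM 1 and SLC2A1 1, with 0 of ACGTG in each of these windows. The genes that were lower and the genes that were higher both had windows with matches.

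Values are RPKM, reads scaled by library size and gene length, and the length behind the deposited values appears to be the whole gene with its introns: 21 of the 34 genes gave whole reads with that length, 9 only with a length inferred from the values (PGK1, PFKFB3 and PDK1 among them, where it was far from the annotated span; their values in RPM rest on 1 constant factor a gene), and ALDOA, GAPDH, ENO1 and PKM with neither. A long gene therefore has a low RPKM, levels of different genes are not compared on this scale, and a fall is relative to the other RNA of the library; fewer cells of a type and less RNA per cell cannot be told apart in such bulk samples. Library sizes implied by the values were 51135585 to 78294322 reads. The test was limited to genes averaging 0.5 RPKM or more, which left 27 of the 34; EGLN3, ALDOC, PFKFB3, PFKFB4, PDK1, CA9 and CA12 lay below it and are described separately. HK2 and NDRG1 passed although some group means lay under that level. For HK2 these were 0.361 and 0.330 RPKM in cytochalasin D 2N and 4N cells and 0.412 RPKM in ZM447439 2N cells. The untreated groups thus carried HK2 past the filter. The lowest group mean of NDRG1 was 0.250 RPKM, in untreated cells. For NDRG1 only the cytochalasin D groups lay above the filter level, so these groups alone carried it past the filter. In each group 1 library stood apart from the other two: number 3 of the untreated and number 1 of each drug, in both sorts (root mean square deviation from the group mean 0.159 to 0.214, against 0.111 to 0.145 for the rest). Fits without these libraries, given below, lower the spread by construction and leave 2 libraries per group. Of 12 markers of retinal pigment epithelium 5 had a mean over 0.5 RPKM, while RPE65, TYR, TYRP1, DCT, TTR, RLBP1 and MITF did not; of 11 markers of other cell types 0 did, with sums of 0.194 to 0.614 RPKM per library. Proliferation genes moved with the drugs: the summed level of 14 G2/M genes was 112 to 153 RPKM in untreated 2N and 388 to 412 in untreated 4N cells, 11.9 to 21.3 and 31.2 to 32.0 with cytochalasin D, and 17.3 to 38.1 and 57.2 to 78.5 with ZM447439. The part of proliferation in the results below was not tested. The 2 drug comparisons share the untreated libraries, so that their values stand side by side and are not independent of each other.

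With cytochalasin D, glycolytic enzymes fell along most of the pathway while VEGFA rose. In 4N cells 7 of the 27 tested genes were higher and 15 lower than in untreated cells, read against 70.5% of all tested genes called (26.1% higher and 44.4% lower). In 2N cells 7 were higher and 14 lower, read against 66.6% called (27.1% higher and 39.5% lower). A called share of 81.5% in 4N and 77.8% in 2N cells was thus not far above the share of all genes. The median log2 change of the 27 genes was -0.31 in 4N and -0.20 in 2N cells, and that of all tested genes -0.13 and -0.08. Rescaling the libraries to a common median ratio, which moved the median of all genes in 2N cells to 0.0034, gave 8 higher and 12 lower in 4N cells and 9 and 12 in 2N cells; quantile normalisation gave 9 and 11, and 9 and 12. The same 7 genes were higher in both sorts, and 13 were lower in both. NDRG1 is among the 7 and passed the filter through the cytochalasin D groups alone. HK2 is among the 13, and the untreated groups carried it past the filter. The overlap of the sorts was not counted over all genes, and no share of all genes is given for either scaling. Nothing particular to these genes is read from those counts.

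With ZM447439 most glycolytic enzymes were lower as well. In 4N cells 5 of the 27 were higher and 13 lower than in untreated cells, read against 55.2% of all tested genes called (19.6% higher and 35.5% lower). In 2N cells 5 were higher and 15 lower, read against 56% called (23.6% higher and 32.5% lower). The median log2 change of the 27 was -0.17 in 4N and -0.18 in 2N cells, and that of all tested genes -0.07 and -0.04. Of the genes called, 4 were higher and 13 lower in both sorts, an overlap that was not counted over all genes either. The 13 include HK2, which the untreated groups carried past the filter. Without the 6 libraries that stood apart, 5 were higher and 18 lower in each sort, where 65.5% of all genes were called in 4N and 68.7% in 2N cells; with cytochalasin D it was 8 and 15 in each sort, where 76.9% and 74.7% were called.

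**Figure D1:**
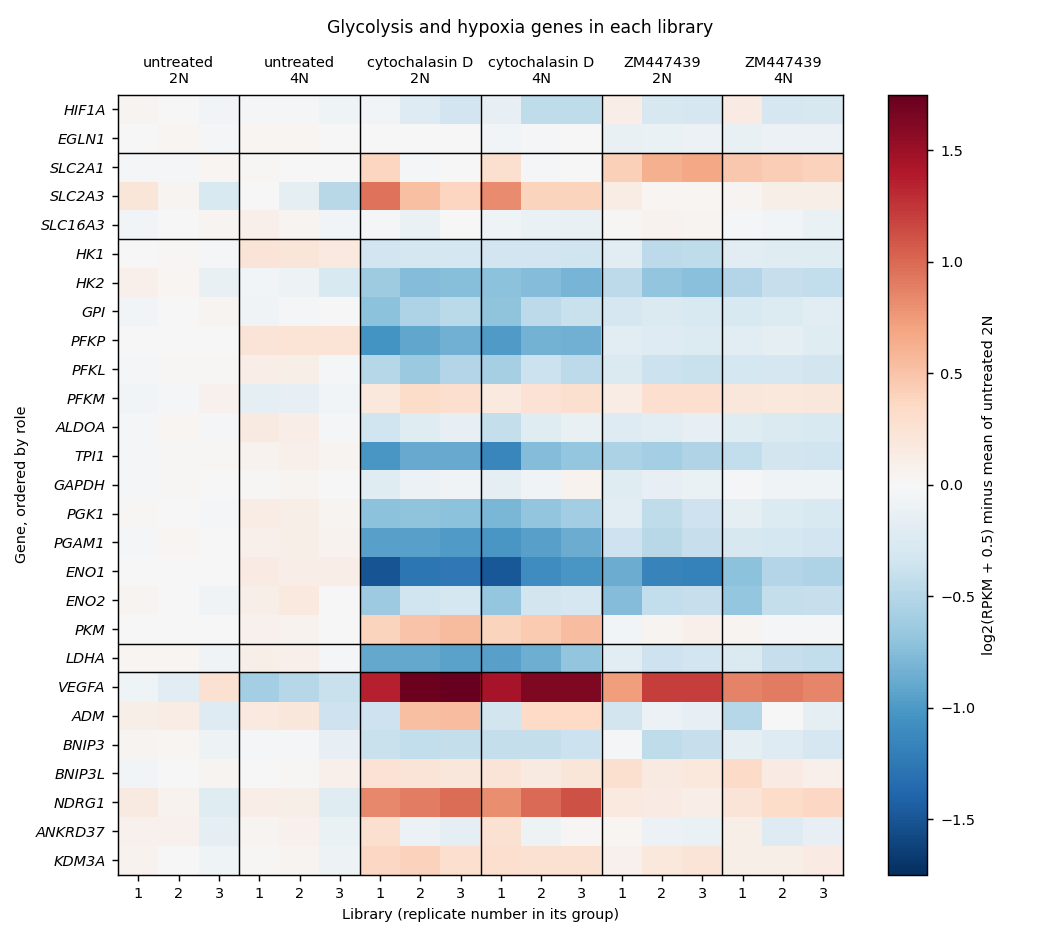
Each row is 1 of the 27 tested genes, ordered by role, and each column 1 of the 18 libraries; colour is log2(RPKM + 0.5) minus the mean of untreated 2N cells, blue lower and red higher. The glycolytic rows from HK1 to ENO2 are mostly blue under both drugs, PFKM is the pale red exception among them, PKM is red with cytochalasin D, and VEGFA is the deepest red row.

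Of the HIF pathway itself, HIF1A, the oxygen-regulated subunit, had 8.86, 8.85 and 8.49 RPKM in untreated 4N cells and 8.04, 6.47 and 6.48 with cytochalasin D. The groups did not overlap, and the log2 change was -0.31 ± 0.13 (SE; adjusted p = 0.0453). That call was lost in 8 of 16 alternatives, including both rescalings and leaving out any 1 untreated 4N library or cytochalasin D library 2 or 3. In 2N cells the values were 9.24, 8.96 and 8.68 against 8.67, 7.61 and 6.99 RPKM, a log2 change of -0.20 ± 0.13 that did not pass (adjusted p = 0.182). With ZM447439 HIF1A was 9.92, 7.24 and 7.33 RPKM in 4N and 9.77, 7.29 and 7.25 in 2N cells. Library 1 lay above every untreated library in both sorts and libraries 2 and 3 lay below, and neither difference passed (log2 change -0.11 and -0.15, adjusted p = 0.513 and 0.344). Without the 6 libraries that stood apart both passed (adjusted p = 0.000368 and 0.000142). Those libraries were picked by their spread in these data, so these 2 calls are not read as support for a fall. EGLN1, the main prolyl hydroxylase that marks HIF1A, was lower with ZM447439 by a small margin (log2 change -0.13 ± 0.03 in 4N and -0.12 ± 0.03 in 2N cells, adjusted p = 0.00146 and 0.00359). With cytochalasin D its change was -0.04 and 0.00 (adjusted p = 0.185 and 0.915). An antisense gene, HIF1A-AS1, shares exons with HIF1A, and the kit did not mark strand. Exons of other genes also overlap those of BNIP3L (PNMA2), TPI1 (SPSB2), SLC16A3 (CSNK1D), ANKRD37 (UFSP2), PGK1 (ATP7A), PFKFB4 (UCN2) and VEGFA (an antisense gene). Further genes described here, among them ALDOA, ENO1, GAPDH and SLC2A1, have such overlaps as well.

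Each drug was followed by a rise of another glucose transporter. SLC2A1 (GLUT1), the basal glucose importer, had 17.8, 17.6 and 17.7 RPKM in untreated 4N cells and 24.5, 23.9 and 23.3 with ZM447439, a log2 change of 0.42 ± 0.10 (adjusted p = 0.00264). The 2N cells had 17.2, 17.3 and 18.0 RPKM untreated and 23.5, 27.2 and 28.3 with ZM447439 (0.57 ± 0.10, adjusted p = 0.000245). The groups did not overlap in either sort. Cytochalasin D gave 21.4, 17.4 and 17.5 RPKM in 4N and 23.0, 17.3 and 17.7 in 2N cells, where library 1 alone was high and the other two lay among or below the untreated values; the changes of 0.07 and 0.12 did not pass (adjusted p = 0.526 and 0.289), but did after rescaling or quantile normalisation. The direct difference of the drugs passed in both sorts (cytochalasin D minus ZM447439 -0.35 ± 0.10 and -0.44 ± 0.10, adjusted p = 0.0124 and 0.00357); in 4N cells it was lost without cytochalasin D library 2 or 3.

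SLC2A3 (GLUT3), a high-affinity glucose importer, rose with cytochalasin D, from 0.833, 0.700 and 0.455 RPKM in untreated 4N cells to 1.87, 1.25 and 1.26 (log2 change 0.75 ± 0.16, adjusted p = 0.00084). In 2N cells it rose from 1.05, 0.882 and 0.615 to 2.08, 1.43 and 1.23 RPKM (0.62 ± 0.16, adjusted p = 0.00396). The lowest cytochalasin D library lay above the highest untreated one in both sorts. With ZM447439 the changes were 0.30 and 0.07 and did not pass (adjusted p = 0.138 and 0.748). Reads of SLC2A3 and its close copy SLC2A14 may not be told apart. SLC16A3 (MCT4), a lactate exporter, stayed between 13.2 and 15.4 RPKM in all 18 libraries. Its only call was cytochalasin D in 4N cells (-0.14 ± 0.05, adjusted p = 0.0145). It turned to 0.02 after rescaling and to 0.17, past the threshold in the other direction, after quantile normalisation, so no direction is given for it.

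Among the 15 glycolytic enzymes, 14 were tested. HK2, counted below among those that fell, was carried past the filter by the untreated groups. With cytochalasin D 2 rose and 11 fell in 4N cells and 2 rose and 12 fell in 2N cells; with ZM447439 1 rose and 11 fell, and 1 rose and 12 fell. Of all tested genes 44.4% and 39.5% fell with cytochalasin D and 35.5% and 32.5% with ZM447439, in 4N and 2N cells. The median log2 change of the 14 was -0.54 and -0.56 with cytochalasin D and -0.35 and -0.33 with ZM447439, and that of all tested genes -0.13, -0.08, -0.07 and -0.04. After rescaling, quantile normalisation or leaving out the 6 libraries that stood apart, 9 to 12 of the 14 were lower in each of these 4 comparisons. The shares of all genes lower in these settings are not given here.

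ENO1, the ubiquitous enolase, fell the most of these enzymes. It had 129, 126 and 127 RPKM in untreated 4N cells, 41.7, 54.6 and 57.3 with cytochalasin D and 70.6, 81.9 and 80.2 with ZM447439. The log2 changes were -1.32 ± 0.11 (adjusted p = 9.6e-08) and -0.72 ± 0.11 (adjusted p = 9.71e-05). In 2N cells the values were 116, 117 and 118 RPKM untreated, 40.8, 48.6 and 49.0 with cytochalasin D (-1.34 ± 0.11, adjusted p = 1.08e-07) and 63.9, 51.7 and 51.4 with ZM447439 (-1.07 ± 0.11, adjusted p = 2.22e-06). Every treated library lay below every untreated one. ENO2, the neuronal enolase, fell less with cytochalasin D (-0.52 ± 0.12 in 4N and -0.43 ± 0.12 in 2N cells, adjusted p = 0.00178 and 0.00738), and both calls were lost after quantile normalisation. With ZM447439 it had 6.39, 7.79 and 7.85 RPKM in 4N cells against 11.3, 11.9 and 10.5 untreated (-0.58 ± 0.12, adjusted p = 0.00114). Again no treated library reached an untreated one. Per exon length, and with the annotated span taken for ENO1 although it gave no whole reads, ENO1 made up 94.3% of both enolases in untreated 2N and 94.4% in untreated 4N cells, 89.9% and 90.8% with cytochalasin D, and 91.9% and 94.0% with ZM447439 (means, n = 3).

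Phosphofructokinase, the committing step, has 3 isoenzyme genes, and they moved in different directions. PFKP, the platelet form, had 5.46, 5.50 and 5.47 RPKM in untreated 4N cells and 2.06, 2.36 and 2.35 with cytochalasin D (log2 change -1.12 ± 0.05, adjusted p = 1.59e-10). For 2N cells the values were 4.54, 4.62 and 4.58 RPKM untreated and 1.95, 2.21 and 2.33 with cytochalasin D (-0.93 ± 0.05, adjusted p = 1.54e-09). The groups did not overlap. With ZM447439 PFKP had 3.95, 4.06 and 3.91 RPKM in 4N cells and 3.97, 3.86 and 3.79 in 2N cells, lower than in every untreated library (-0.42 ± 0.05 and -0.22 ± 0.05, adjusted p = 1.02e-05 and 0.00253). PFKL, the liver form, fell with both drugs (-0.54 and -0.55 with cytochalasin D, -0.37 and -0.34 with ZM447439, in 4N and 2N cells; largest adjusted p = 0.000218). PFKM, the muscle form, rose in all 4 comparisons: from 1.43, 1.45 and 1.56 RPKM in untreated 4N cells to 1.92, 2.04 and 2.1 with cytochalasin D (0.35 ± 0.05, adjusted p = 4.7e-05) and 1.97, 1.94 and 1.96 with ZM447439 (0.31 ± 0.05, adjusted p = 0.000238). In 2N cells its changes were 0.26 ± 0.05 and 0.24 ± 0.05 (adjusted p = 0.000708 and 0.00177).

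Per exon length, the share of PFKM in the sum of the 3 genes was 9.80% ± 0.558 in untreated 2N and 7.74% ± 0.438 in untreated 4N cells (SD, n = 3). It was 21.1% ± 0.760 in 2N and 19.4% to 20.6% in 4N cells with cytochalasin D and, in 2N and 4N cells, 14.0% ± 1.29 and 13.2% ± 0.269 with ZM447439. The lowest treated library (12.5%) lay above the highest untreated one (10.4%). PFKP remained the most abundant form in every library, at 70.9% to 75.6% untreated, 55.7% to 59.1% with cytochalasin D and 69.0% to 70.5% with ZM447439. SENP1 shares exons with PFKM on the other strand, and reads of the 2 genes cannot be told apart here.

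**Figure D2:**
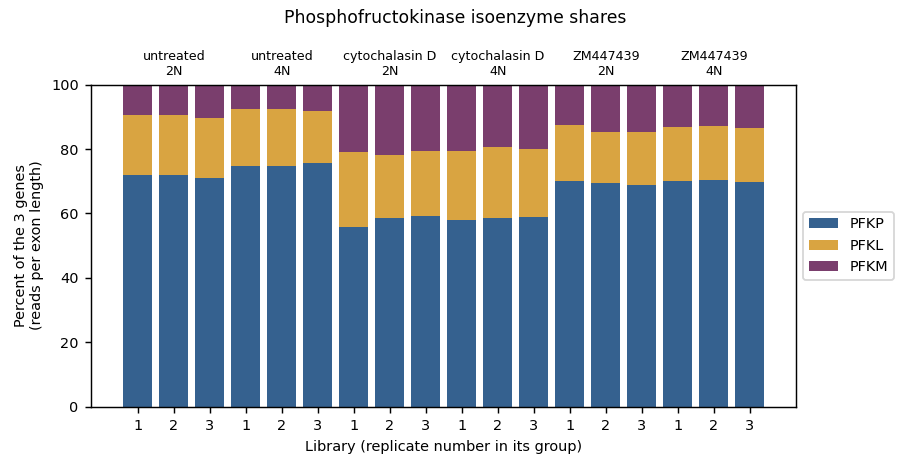
Each bar is 1 library, and the colours give the percent of PFKP (bottom), PFKL (middle) and PFKM (top) in the sum of the 3 genes, in reads per exon length. The PFKM segment spans 7.45% to 10.4% in untreated libraries, 19.4% to 22.0% with cytochalasin D and 12.5% to 14.8% with ZM447439.

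Of the hexokinases, which act at the entry step, HK1 and HK2 were tested. HK2, the inducible form, had 0.988, 0.943 and 0.789 RPKM in untreated 2N cells, 0.415, 0.329 and 0.340 with cytochalasin D (log2 change -0.71 ± 0.08, adjusted p = 1.52e-06) and 0.520, 0.369 and 0.346 with ZM447439 (-0.63 ± 0.08, adjusted p = 9.38e-06). In 4N cells its changes were -0.63 and -0.31 (adjusted p = 4.5e-06 and 0.00346). At this low level the added 0.5 RPKM makes the log2 change smaller than the ratio of the levels. The untreated groups carried HK2 past the filter, so its adjusted p-values are not read as support for its fall. HK1, the constitutive form, fell by 0.54 and 0.32 on the log2 scale with cytochalasin D and by 0.41 and 0.36 with ZM447439, in 4N and 2N cells (largest adjusted p = 0.000147). Treated libraries lay below the untreated ones of their sort for both genes. GPI, the isomerase of the next step, fell with cytochalasin D (-0.48 and -0.57, adjusted p = 3.55e-05 and 6.84e-06). Its ZM447439 change was smaller (-0.19 and -0.27, adjusted p = 0.039 and 0.00574), and the call in 4N cells was lost without any 1 of its 6 libraries.

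In the middle and lower steps, TPI1, triose phosphate isomerase, had 162, 165 and 162 RPKM in untreated 4N cells, 70.3, 92.0 and 97.4 with cytochalasin D (-0.92 ± 0.09, adjusted p = 2.97e-07) and 115, 125 and 122 with ZM447439 (-0.43 ± 0.09, adjusted p = 0.000821). PGAM1, phosphoglycerate mutase, had 82.5, 83.1 and 80.8 RPKM in untreated 4N cells and 37.8, 39.9 and 42.1 with cytochalasin D (-1.03 ± 0.05, adjusted p = 9.74e-11). In 2N cells PGAM1 had 75.2, 79.1 and 77.8 RPKM untreated and 39.9, 39.7 and 38.8 with cytochalasin D (-0.96 ± 0.05, adjusted p = 3.44e-10). No treated library reached an untreated one for either enzyme, and in 4N cells TPI1 varied more between cytochalasin D libraries than between untreated ones. With ZM447439 PGAM1 changed by -0.39 and -0.42 in 4N and 2N cells (adjusted p = 5.1e-06 and 2.61e-06). TPI1 changed by -0.93 and -0.56 in 2N cells with cytochalasin D and ZM447439 (adjusted p = 3.44e-07 and 9.07e-05).

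PGK1, phosphoglycerate kinase, had 5.29, 5.16 and 4.94 RPKM in untreated 4N cells, 2.54, 2.77 and 2.97 with cytochalasin D (-0.79 ± 0.06, adjusted p = 3.21e-08) and 4.17, 3.96 and 3.90 with ZM447439 (-0.32 ± 0.06, adjusted p = 0.000501). In 2N cells it had 4.87, 4.80 and 4.68 RPKM untreated, 2.72, 2.74 and 2.70 with cytochalasin D (-0.71 ± 0.06, adjusted p = 1.23e-07) and 4.15, 3.37 and 3.62 with ZM447439 (-0.33 ± 0.06, adjusted p = 0.000372). Every treated library was lower than every untreated one. ALDOA, the main aldolase, changed by -0.33 and -0.24 with cytochalasin D and by -0.32 and -0.18 with ZM447439 (4N and 2N cells; adjusted p = 0.000796, 0.00977, 0.00153 and 0.0405). Quantile normalisation ended each of these 4 calls, and the ZM447439 call in 2N cells was lost without any 1 of its 6 libraries.

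GAPDH, often used as a reference gene, had 932, 947 and 910 RPKM in untreated 4N cells, 825, 882 and 962 with cytochalasin D and 904, 882 and 868 with ZM447439. Neither difference passed in 4N cells (-0.07 each, adjusted p = 0.301 and 0.292), and the first turned to 0.10 after rescaling and to -0.17, past the threshold, after quantile normalisation. Among 2N cells it had 904, 930 and 922 RPKM untreated, 789, 853 and 877 with cytochalasin D (-0.13 ± 0.06, adjusted p = 0.0499) and 796, 829 and 848 with ZM447439 (-0.16 ± 0.06, adjusted p = 0.0261). Both calls were lost after rescaling, without untreated 2N library 2 or 3, and without library 1 or 2 of the drug. Among the 14 tested enzymes its log2 change was the smallest in size with cytochalasin D in both sorts, and with ZM447439 only that of PKM was smaller.

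PKM, pyruvate kinase, rose with cytochalasin D while most steps before it fell. It had 92.6, 92.0 and 87.9 RPKM in untreated 4N cells and 115, 121 and 128 with cytochalasin D (0.42 ± 0.05, adjusted p = 6.76e-06). The 2N cells had 87.5, 89.0 and 88.4 RPKM untreated and 115, 125 and 130 with cytochalasin D (0.48 ± 0.05, adjusted p = 1.82e-06). With ZM447439 the values of 86.8 to 91.0 RPKM in 4N and 85.7 to 94.0 in 2N cells overlapped the untreated ones (-0.04 and 0.03, adjusted p = 0.549 and 0.66). The table does not separate the splice forms of this gene.

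LDHA, which turns pyruvate into lactate, had 69.9, 69.5 and 63.5 RPKM in untreated 4N cells, 33.7, 35.9 and 40.3 with cytochalasin D (-0.88 ± 0.07, adjusted p = 4.35e-08) and 54.9, 49.5 and 48.4 with ZM447439 (-0.41 ± 0.07, adjusted p = 0.000205). In 2N cells it had 66.7, 67.0 and 62.4 RPKM untreated, 35.0, 34.9 and 33.8 with cytochalasin D (-0.91 ± 0.07, adjusted p = 3.99e-08) and 56.7, 50.5 and 51.5 with ZM447439 (-0.30 ± 0.07, adjusted p = 0.00198). No treated library reached an untreated one. Processed pseudogenes and paralogs of GAPDH, ENO1, PGK1, LDHA, PKM, TPI1 and PGAM1 can take or give reads, and how the authors' counting handled such reads was not stated in the labels.

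**Figure D3:**
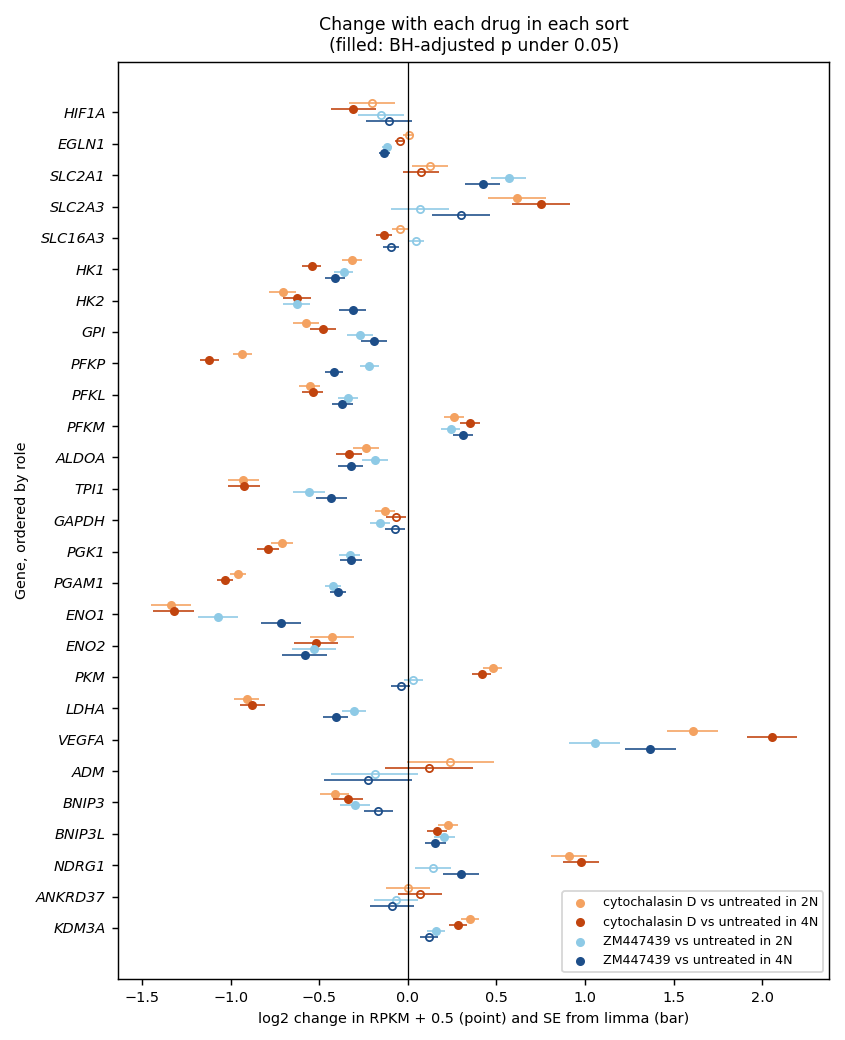
Points are the log2 changes with each drug in each sort for the 27 tested genes, bars the SE from limma, and filled points passed at a BH-adjusted p under 0.05. PFKM lies right of 0 in all 4 comparisons, PKM only with cytochalasin D, and VEGFA lies farthest to the right, from 1.05 to 2.05; ENO1 lies farthest to the left, from -1.34 to -0.72.

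VEGFA rose the most of the other hypoxia-induced genes. Of 7 tested, 4 rose and 1 fell with cytochalasin D in each sort. The 4 include NDRG1, which passed the filter through the cytochalasin D groups alone. With ZM447439 3 rose and 0 fell in 4N cells, and 3 rose and 1 fell in 2N cells. The called shares of 71.4% in each sort with cytochalasin D and 42.9% and 57.1% with ZM447439 were near or below those of all tested genes (70.5%, 66.6%, 55.2% and 56%). VEGFA, the angiogenic growth factor, had 10.9, 11.6 and 12.6 RPKM in untreated 4N cells, 45.7, 52.3 and 52.3 with cytochalasin D (2.05 ± 0.14, adjusted p = 9.49e-09) and 30.5, 31.7 and 30.5 with ZM447439 (1.37 ± 0.14, adjusted p = 1.8e-06). Values in 2N cells were 15.7, 14.5 and 20.1 RPKM untreated, 43.2, 55.8 and 56.9 with cytochalasin D (1.61 ± 0.14, adjusted p = 1.64e-07) and 28.0, 39.1 and 39.1 with ZM447439 (1.05 ± 0.14, adjusted p = 2.14e-05). The lowest treated library exceeded the highest untreated one in both sorts and with both drugs.

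NDRG1, a stress-responsive gene known to be induced by hypoxia and on differentiation, had 0.305, 0.300 and 0.143 RPKM in untreated 4N cells and 0.812, 0.987 and 1.11 with cytochalasin D (0.98 ± 0.10, adjusted p = 8.23e-07). Among 2N cells it had 0.333, 0.275 and 0.141 RPKM untreated and 0.836, 0.890 and 0.973 with cytochalasin D (0.91 ± 0.10, adjusted p = 2.03e-06). Untreated library 3 was low in both sorts. NDRG1 had passed the filter through the cytochalasin D groups alone, so nothing is read from its tests with that drug. With ZM447439 it had 0.369, 0.430 and 0.457 RPKM in 4N cells (0.30 ± 0.10, adjusted p = 0.0228), a call lost after quantile normalisation, without untreated 4N library 3 or without ZM447439 4N library 2 or 3. In 2N cells ZM447439 gave 0.337, 0.321 and 0.310 RPKM, within reach of the untreated values (0.14, adjusted p = 0.256).

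KDM3A, a histone demethylase, rose with cytochalasin D (0.28 ± 0.05 in 4N and 0.35 ± 0.05 in 2N cells, adjusted p = 0.000137 and 1.9e-05) and with ZM447439 in 2N cells (0.16 ± 0.05, adjusted p = 0.0141), a call lost without library 3 of either group; in 4N cells the ZM447439 change was 0.12 (adjusted p = 0.0565). The mitophagy receptors BNIP3 and BNIP3L moved apart. BNIP3 fell with cytochalasin D (-0.34 ± 0.08 and -0.41 ± 0.08, adjusted p = 0.00212 and 0.000489; the first was lost after either rescaling) and with ZM447439 in 2N cells (-0.30 ± 0.08, adjusted p = 0.00706). BNIP3L rose in all 4 comparisons, by 0.16 to 0.23 on the log2 scale (largest adjusted p = 0.0311). Its calls in 4N cells were lost without untreated library 1 or 2 or without library 1 of the drug. PNMA2 shares exons with BNIP3L on the other strand, and reads of those exons cannot be told apart here.

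ADM, the vasodilator peptide adrenomedullin, and ANKRD37, a small ankyrin-repeat gene, passed in none of the 4 drug comparisons (smallest adjusted p = 0.407 for ADM and 0.58 for ANKRD37), and their spread between libraries was wide. ADM had 13.0, 21.1 and 21.2 RPKM in cytochalasin D 4N cells and 12.7, 24.0 and 24.2 in 2N cells, against 18.6, 19 and 12.7, and 17.7, 18.0 and 13.9 untreated. The libraries numbered 1 with cytochalasin D and 3 without treatment, which stood apart over all genes, were the low ones. Without the 6 libraries that stood apart, ADM passed in all 4 comparisons, higher with cytochalasin D and lower with ZM447439 (smallest adjusted p = 4.17e-05, in 2N cells with cytochalasin D). Those libraries were picked by their spread in these data, and leaving them out lowers the spread by construction. The calls of ADM without them are therefore not read as support for a change.

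**Figure D4:**
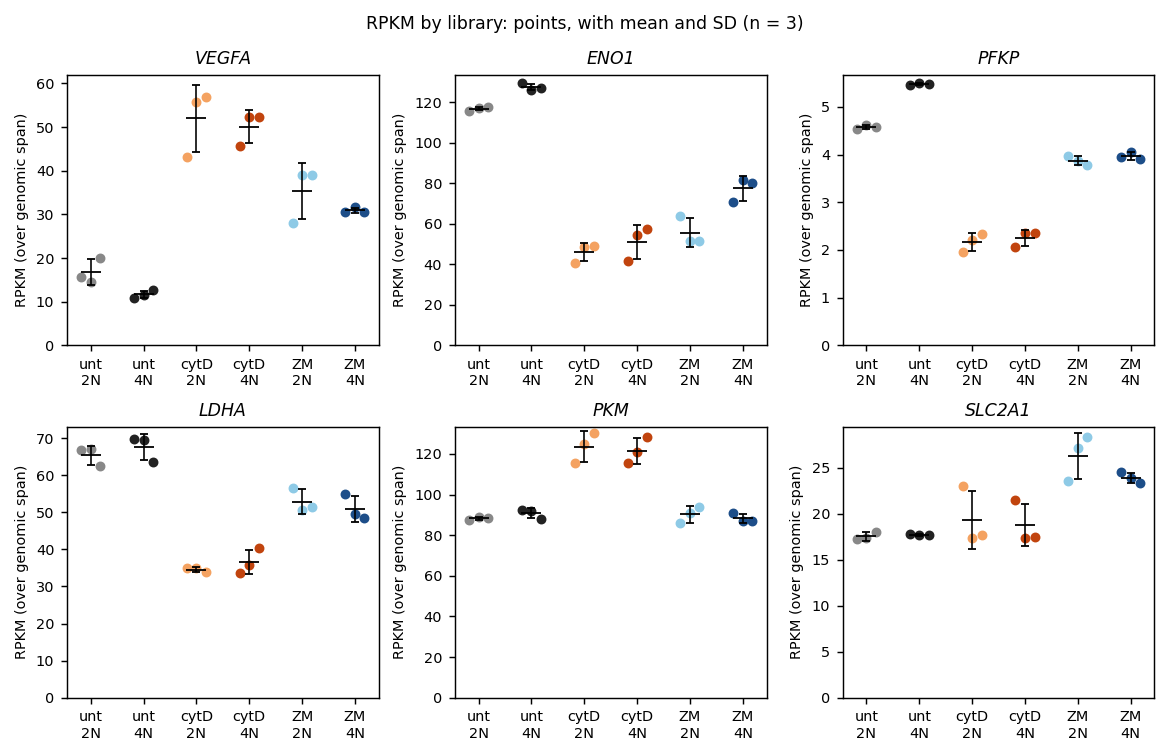
RPKM of 6 genes in each library (points), with the mean and SD of each group (n = 3); unt is untreated, cytD cytochalasin D and ZM ZM447439, and each panel has its own scale from 0. VEGFA is higher and ENO1, PFKP and LDHA are lower with both drugs; PKM stands apart with cytochalasin D and SLC2A1 with ZM447439.

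The 7 genes below 0.5 RPKM on average were examined as RPM, reads scaled by library size alone and recovered with the gene length, on the scale log2(RPM + 0.5), where 6 could be fitted; CA12 held 9 to 32 reads per library and was not. In that fit 72.2% of all genes were called with cytochalasin D in 4N and 68.2% in 2N cells, and 57.1% and 56.3% with ZM447439. PDK1, the kinase that closes pyruvate dehydrogenase, fell in all 4 comparisons: its RPKM were 0.237, 0.234 and 0.211 in untreated 4N cells, 0.129, 0.144 and 0.141 with cytochalasin D (log2 change -0.69, adjusted p = 2.92e-07) and 0.176, 0.179 and 0.178 with ZM447439 (-0.34, adjusted p = 0.000686). In 2N cells it had 0.265, 0.257 and 0.223 RPKM untreated, 0.141, 0.146 and 0.147 with cytochalasin D (-0.74, adjusted p = 1.59e-07) and 0.198, 0.186 and 0.204 with ZM447439 (-0.33, adjusted p = 0.000932). Treated and untreated libraries did not overlap.

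PFKFB3, which makes the activator of phosphofructokinase, did not pass in any comparison (smallest adjusted p among drug comparisons 0.426) and differed between libraries of 1 group. It had 0.661, 0.594 and 0.355 RPKM in untreated 2N cells, 0.794, 0.314 and 0.325 with cytochalasin D and 0.575, 0.333 and 0.297 with ZM447439. Its paralog PFKFB4 rose with cytochalasin D (0.94 in 4N and 0.51 in 2N cells, adjusted p = 6.98e-05 and 0.00938) and with ZM447439 in 4N cells (0.76, adjusted p = 0.000735). ALDOC, the brain aldolase, had 0.334, 0.347 and 0.569 RPKM in untreated 4N cells and 0.0662, 0.0873 and 0.0947 with cytochalasin D (-1.38, adjusted p = 5.13e-07) and 0.0950, 0.169 and 0.154 with ZM447439 (-1.03, adjusted p = 2.48e-05). In 2N cells the change was -0.58 with cytochalasin D (adjusted p = 0.00265) and -0.34, which did not pass, with ZM447439 (adjusted p = 0.0599). These are 16 to 135 reads per library. ALDOC passed the filter of that fit, a mean of 0.5 RPM, only through untreated 4N cells. Nothing is therefore read from its tests in 4N cells. EGLN3, a prolyl hydroxylase that is itself induced by HIF, was lower with cytochalasin D (-0.38 and -0.42, adjusted p = 0.0289 and 0.0186). In 4N cells this rested on libraries 2 and 3 (0.0315 and 0.0305 RPKM). Library 1 (0.0480) lay above every untreated 4N library (0.0463 to 0.0475). In 2N cells the values were 0.0421, 0.0318 and 0.0309 RPKM against 0.0464, 0.0491 and 0.0441 untreated. CA9, a carbonic anhydrase that is a standard marker of hypoxia, stood at 0.0886 to 0.341 RPKM, or 37 to 189 reads. It was higher with cytochalasin D in 4N cells (0.82, adjusted p = 0.000286) and lower with ZM447439 in 2N cells (-0.74, adjusted p = 0.00107). ARHGEF39 shares exons with CA9 on the other strand.

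**Figure D5:**
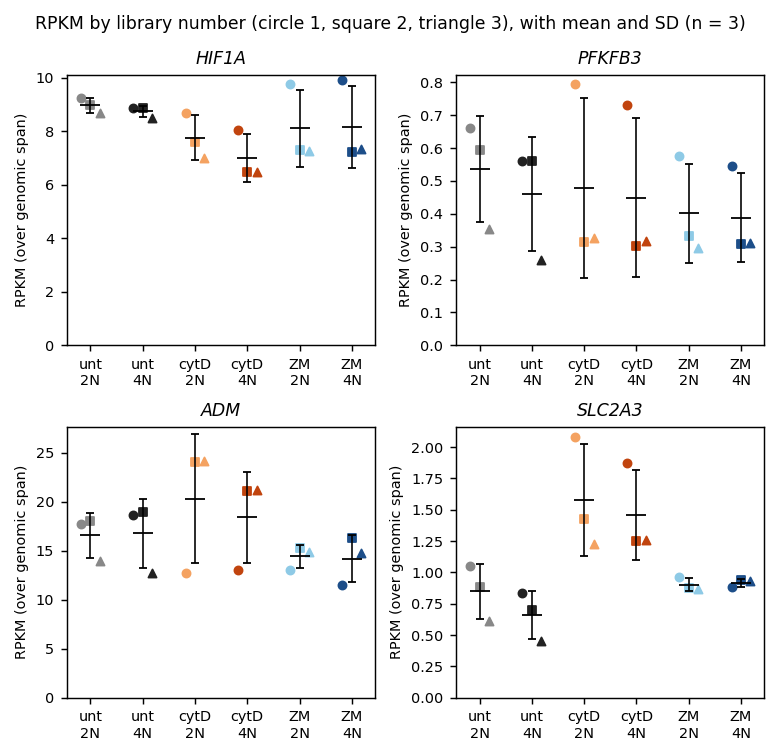
RPKM of HIF1A, PFKFB3, ADM and SLC2A3 in each library, with the symbol giving the library number (circle 1, square 2, triangle 3) and bars the mean and SD (n = 3); unt is untreated, cytD cytochalasin D and ZM ZM447439. In PFKFB3 and HIF1A the circles are high under both drugs, and untreated triangles are low in PFKFB3, ADM and SLC2A3.

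Set against each other, VEGFA, PKM and SLC2A3 were higher with cytochalasin D than with ZM447439, and SLC2A1, GPI, PFKP, PFKL, TPI1, PGK1, PGAM1 and LDHA were lower, in both sorts. NDRG1 was higher too, but it had passed the filter through the cytochalasin D groups alone, and nothing is read from that. In 4N cells 6 of the 27 genes were higher and 10 lower with cytochalasin D, read against 43.5% of all tested genes called. In 2N cells 6 were higher and 8 lower, read against 36.9% called; 8 in all passed when only the libraries of these 2 groups entered the fit. Of the 14 glycolytic enzymes, 8 were lower in 4N and 6 in 2N cells, read against 27.8% and 23.2% of all tested genes lower, and PKM was higher in both (0.46 and 0.45, adjusted p = 1.7e-05 and 3.19e-05). The largest differences in 4N cells were those of PFKP (-0.70 ± 0.05, adjusted p = 3.39e-07), VEGFA (0.69 ± 0.14, adjusted p = 0.00146), NDRG1 (0.68 ± 0.10, adjusted p = 0.000136) and PGAM1 (-0.64 ± 0.05, adjusted p = 2.28e-07). In 2N cells they were those of NDRG1 (0.77 ± 0.10, adjusted p = 8.01e-05), PFKP (-0.72 ± 0.05, adjusted p = 3.76e-07), LDHA (-0.60 ± 0.07, adjusted p = 2.52e-05) and VEGFA (0.55 ± 0.14, adjusted p = 0.00768). LDHA and PGK1 differed by -0.47 each in 4N cells (adjusted p = 0.000118 and 4.02e-05), and PGK1 by -0.38 in 2N cells (adjusted p = 0.000314). GAPDH (0.01 and 0.03) and HIF1A (-0.20 and -0.05) did not pass; with the replicate number as a block HIF1A passed in 4N cells (adjusted p = 0.0488). The dose and time of cytochalasin D are not known here, so the drugs cannot be compared at a matched exposure.

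Between 4N and 2N cells the genes differed little. Among untreated cells 2 of the 27 were higher and 1 lower in 4N cells, read against 17.4% of all tested genes called (12.9% higher and 4.55% lower). PFKP was higher, at 5.46, 5.50 and 5.47 against 4.54, 4.62 and 4.58 RPKM (0.23 ± 0.05, adjusted p = 0.00588). HK1 was higher, at 2.61, 2.56 and 2.48 against 2.17, 2.20 and 2.09 RPKM (0.20 ± 0.06, adjusted p = 0.0211). VEGFA was lower, at 10.9, 11.6 and 12.6 against 15.7, 14.5 and 20.1 RPKM (-0.49 ± 0.14, adjusted p = 0.0278). In none of the 3 did the sorts overlap. The HK1 call was lost after rescaling and without untreated 2N library 1 or 3 or 4N library 1 or 2, and the VEGFA call without untreated 2N library 3 or 4N library 1 or 2. Quantile normalisation ended the calls of PFKP and HK1. The same-numbered 2N and 4N libraries of a treatment were taken as pairs, which the labels do not state. With that block SLC2A3 was lower in untreated 4N cells as well (-0.21, adjusted p = 0.00893, against 0.452 without it). ALDOC and CA9, in RPM (20.4% of genes called), were higher and lower in untreated 4N cells (0.89 and -0.66, adjusted p = 0.000495 and 0.0088). Nothing is read from the ALDOC call, because ALDOC entered the RPM fit only through untreated 4N cells. Of the 6 low genes 0 passed between the sorts with cytochalasin D or ZM447439, where 0.00497% and 7.63% of all genes did.

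With cytochalasin D, limma called 0 of the 27 genes between the sorts, read against 0% of all tested genes, and 0 had an unadjusted p under 0.05; the largest log2 difference was -0.14, of HIF1A. With ZM447439 only ENO1 passed, read against 7.66% of all genes called (5.21% higher and 2.45% lower). It had 70.6, 81.9 and 80.2 RPKM in 4N and 63.9, 51.7 and 51.4 in 2N cells, without overlap (0.48 ± 0.11, adjusted p = 0.0226). The call was lost without ZM447439 library 2 or 3 of either sort. Without 2N library 1, 6 genes passed, ENO1 among them with HK1, HK2, PGK1, PGAM1 and BNIP3. That library is 1 of those that stood apart. The share of all genes called without it is not given here, so nothing particular to these genes is read from the 6. Without the 6 libraries that stood apart, 8 genes passed in untreated cells (30% of all genes called), 4 with cytochalasin D (7.22%) and 12 with ZM447439 (40.3%).

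Whether the difference between the sorts itself changed with treatment was tested by 3 interactions. None of the 27 genes passed in limma with BH adjustment, where 7.85% of all tested genes passed for cytochalasin D against untreated (1.8% higher and 6.04% lower), 10.1% for ZM447439 against untreated (3.52% higher and 6.58% lower) and 0% between the drugs; 3, 4 and 2 genes had an unadjusted p under 0.05. With same-numbered libraries taken as pairs in a block, PFKP passed for cytochalasin D (adjusted p = 0.0256), and SLC2A3, HK2 and PFKP for ZM447439 (adjusted p = 0.0362, 0.0472 and 0.0171). The shares above are those without the block, and none is given with it, so nothing particular to these genes is read from these calls. HK2 had also been carried past the filter by the untreated groups, which enter this interaction. In RPM, 2 genes of low level, ALDOC and CA9, passed in both interactions with untreated cells, where 8.27% and 11.2% of all genes did. For ALDOC nothing is read from this, because untreated 4N cells alone carried it past the filter of that fit.

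Genes of neighbouring pathways gave a mixed picture. Called shares of all tested genes, against which the counts of these lists are read, were 70.5% and 66.6% with cytochalasin D and 55.2% and 56% with ZM447439, in 4N and 2N cells. Of 9 further glycolytic genes tested, 6 fell in each of the 4 drug comparisons and 1 to 3 rose (88.9%, 77.8%, 100% and 77.8% called): PGAM2, the muscle mutase, rose with cytochalasin D in 4N cells (1.22, adjusted p = 9.8e-08), and ENO3, the muscle enolase, fell (-0.82, adjusted p = 6.46e-07). PGAM4 fell by nearly the same amount as PGAM1, its near-identical parent gene (-1.06, adjusted p = 3.32e-11), and the 2 may share reads. TIGAR, counted among the 3 that rose with ZM447439 in 4N cells, averaged 0.503 RPKM over all libraries. Its mean was 0.777 RPKM in that group and 0.409 in untreated 4N cells. The ZM447439 groups thus carried it past the filter, and nothing is read from its call. Overlap with other genes was not examined for the genes of these lists. The values of ENO3 and others may therefore hold reads of a gene on the other strand. Of 7 pentose phosphate genes, 4 rose and 1 fell with cytochalasin D in each sort, and 3 rose and 1 fell with ZM447439, shares of 71.4% and 57.1% that lay near those of all genes. Among those that rose were TKT (1.13 in 4N cells with cytochalasin D), a transketolase, and H6PD (0.87), an enzyme of the endoplasmic reticulum. Of 8 further transporters 3 rose and 4 fell with cytochalasin D in 4N cells and 3 and 2 in 2N cells, and with ZM447439 2 and 2, and 4 and 1. In 4N cells with cytochalasin D SLC2A11 rose (1.38) and the lactate transporter SLC16A1 fell (-0.67).

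Of 23 genes of pyruvate dehydrogenase and the citrate cycle, 7 rose and 13 fell with cytochalasin D in 4N cells, 8 and 12 in 2N cells, and with ZM447439 2 rose and 11 fell, and 5 and 8. The called share was 87% in each sort with cytochalasin D and 56.5% with ZM447439, the latter near that of all genes. FH, fumarate hydratase, fell with cytochalasin D (-1.21 in 4N cells, adjusted p = 3.38e-11), and PDK2, a kinase that closes pyruvate dehydrogenase, rose (1.36, adjusted p = 4.63e-08) together with PDP1, the phosphatase that opens it (0.97, adjusted p = 7.93e-07). Among 12 regulators of HIF, 5 rose and 3 fell in 4N and 6 and 2 in 2N cells with cytochalasin D, and 4 and 4, and 5 and 2, with ZM447439. Their called shares (66.7% in 3 comparisons and 58.3% in 2N cells with ZM447439) were not far from those of all genes. EPAS1 (HIF2A), the other oxygen-regulated subunit, rose with cytochalasin D in 4N and 2N cells (1.01 and 1.04, adjusted p = 4.92e-07 and 4.27e-07) and in 2N cells with ZM447439 (0.37, adjusted p = 0.00621). CITED2, an inhibitor of HIF that is induced by it, rose in all 4 comparisons (0.79, 0.74, 0.80 and 0.66, largest adjusted p = 0.00461).

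Of 28 further HIF targets tested, 7 rose and 11 fell with cytochalasin D in 4N cells and 7 and 7 in 2N cells; with ZM447439 it was 5 and 5, and 10 and 3. DDIT4 (REDD1), an inhibitor of mTOR that stress also induces, rose in all 4 (2.41, 1.86, 1.58 and 1.38, largest adjusted p = 0.000369). HILPDA, a lipid droplet protein, fell with cytochalasin D in 2N cells (-1.22, adjusted p = 5.75e-09) and with ZM447439 in 2N and 4N cells (-0.75 and -0.59, adjusted p = 1.8e-06 and 1.87e-05); in 4N cells with cytochalasin D its mean was 0.984 RPKM, against 2.51 untreated. The called share of this list was 64.3% and 50% with cytochalasin D and 35.7% and 46.4% with ZM447439, in 4N and 2N cells, each below that of all tested genes. Without the 6 libraries that stood apart, 7 of the 28 rose and 16 fell in 4N cells with either drug, where 76.9% of all genes were called with cytochalasin D and 65.5% with ZM447439.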

How the data were processed

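Polyadenylated RNA of 18 libraries in 6 groups was analysed from a table of RPKM per gene deposited by the authors. Per the submitters' processing notes, CASAVA 1.8.2, TopHat2, edgeR and the hg19 build were used; which program counted the reads was not stated there. Low RPKM values mostly came out as whole reads with the genomic span of a gene and not with its exon length, so the deposited RPKM appears to divide by the span.

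The 34 genes and all other gene lists were chosen with earlier results of these data known. Values were taken as log2(RPKM + 0.5), genes averaging 0.5 RPKM or more were kept (13037 of 57773, 22.6%), and limma 3.58.1 in R 4.3.3 was fitted to 6 group means with 12 residual degrees of freedom and a trend. Tests were two-sided and adjusted by the Benjamini-Hochberg method over all genes tested, with a threshold of 0.05. Genes under the filter were fitted as log2(RPM + 0.5), in a fit of the 20106 genes averaging 0.5 RPM or more. Per-library values were given for the 4 passing genes with the largest log2 change per comparison and for HIF1A, SLC2A1, LDHA, PGK1, GAPDH, PFKFB3 and PDK1, with others described by role; of each other list at most 3 genes were named per comparison. Tested on simulated data for untreated 4N against 2N cells (13037 genes, 200 changed), the fit recovered 76% of genes changed by 0.5 on the log2 scale, 90% by 1 and 99.5% by 2. The simulated libraries varied independently and with equal spread, unlike the real ones. Recovery in the real data may therefore be lower.

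Same-numbered 2N and 4N libraries of a treatment deviated together (correlation 0.192 to 0.632 in 9 pairs), and the numbers were taken to pair the sorts. Some differently numbered libraries correlated as much (up to 0.385), and the labels do not say what a number shares. Same-numbered libraries of the 2 drugs also deviated together (0.231 to 0.523), while those of untreated and treated cells did not in every pair (-0.206 to 0.281). Alternatives were the pseudocount, the filter, RPM, rescaling, quantile normalisation, the replicate block, fits on the compared libraries alone and leaving libraries out. Some genes of the other lists are not reported here.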

Additional observations from a re-analysis of the deposited data

Results flagged for a closer look

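In 2 genes of low level the difference between 4N and 2N cells itself differed between treatments, by the interaction term of limma with Benjamini-Hochberg adjustment in RPM. For ALDOC, a minor aldolase, the 4N minus 2N difference was lower with cytochalasin D than untreated (-0.7993 on the log2 scale, SE 0.21, adjusted p = 0.0268) and with ZM447439 (-0.6882, SE 0.21, adjusted p = 0.0457). For CA9, a carbonic anhydrase, it was higher, by 0.9409 with cytochalasin D (SE 0.23, adjusted p = 0.0184) and by 0.9338 with ZM447439 (SE 0.23, adjusted p = 0.0166). Of all genes in that fit 8.27% and 11.2% passed. Both interactions share the untreated libraries, and ALDOC rests on 16 to 135 reads per library and CA9 on 37 to 189. ARHGEF39 shares exons with CA9 on the other strand, and reads of those exons cannot be told apart here. ALDOC entered that fit, limited to a mean of 0.5 RPM or more, only through its level in untreated 4N cells. Library 3 of that group, which stood apart, was the highest (0.569 RPKM). The group enters both interactions, so nothing is read from the ALDOC tests.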

How the results depend on the processing

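For the 27 genes in 9 comparisons (243 results), 3510 of 3852 alternative values kept their sign and side of the threshold, 146 changed sign while passing in neither setting, 122 lost the call, 69 gained one and 5 reversed. SLC16A3 with cytochalasin D turned from -0.14 to 0.0221 after rescaling and 0.17 after quantile normalisation in 4N cells and to 0.14 after the latter in 2N cells, and with ZM447439 to 0.12 in 4N cells. ANKRD37 with cytochalasin D in 2N cells turned to -0.21 without the 6 libraries that stood apart. Counts of genes called with each drug against untreated cells stayed within 1.5 times of the values given; leaving out 1 library gave 19 to 21 and 20 to 21 with cytochalasin D in 4N and 2N cells, 16 to 17 and 17 to 19 with ZM447439, and 13 to 15 in each sort between the drugs. Between the drugs in 2N cells the count of 14 fell to 8 with only the compared libraries.

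Between the sorts, the 3 calls of untreated cells became 5 in RPM, 1 after quantile normalisation and 8 without the 6 libraries that stood apart (1 to 3 on leaving out 1 library). The 0 of cytochalasin D became 4 without the 6 (0 to 0). The 1 of ZM447439 became 0 without a filter or with only the compared libraries and 12 without the 6 (0 to 6, the 6 without 2N library 1). Leaving out the libraries of highest spread lowers the spread by construction and leaves 2 per group; this choice followed a look at all genes. The 0 calls of the cytochalasin D interaction became 1 without a filter, 2 in RPM, 1 after quantile normalisation, 1 with only the compared libraries and 4 without the 6 (0 to 1). Those of ZM447439 became 1, 2 in RPM, 1 with only the compared libraries and 7 without the 6 (0 to 2), and those between the drugs 4 without the 6 (0 to 1). The cause was not tested.

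With the replicate number as a block, 4 genes were called in untreated cells, and the cytochalasin D and ZM447439 interactions gave 1 and 3. The shares of all genes called with the block are not given, so nothing particular to these genes is read from those counts. Calls that changed between the sorts or the drugs are given beside their values. Untreated and treated libraries share only a number; there the block gave HIF1A a call with cytochalasin D in 2N cells (adjusted p = 0.0352) and SLC2A3 one with ZM447439 in 4N cells (adjusted p = 0.0328). Depth limits ALDOC, CA9 and CA12 most.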
